A study of Mus musculus with 8 samples.

Results

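Cells sense thrombin and related proteases through the protease-activated receptors, and 10 genes of this pathway are described here: the 4 receptor genes F2r, F2rl1, F2rl2 and F2rl3, and the genes of the 6 G protein alpha subunits of the Gq class (Gnaq, Gna11, Gna14, Gna15) and the G12/13 class (Gna12, Gna13). They were selected by gene symbol, and matched through the GENCODE M21 mouse annotation to 10 of the 54018 gene identifiers of the FPKM table (fragments counted on a gene, divided by transcript length and by the size of the library). The selection was made with differences between the study's groups known, so every difference of these 10 genes between groups is given as a description. The count of members past the threshold of the fit over all genes is printed once, beside the share of all genes that passed. Of the 10, 9 reached 1 FPKM in at least 4 of 8 libraries and were among the 12890 genes fitted, and F2rl3 did not.

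The study sequenced polyA RNA in 8 libraries, each from mononuclear cells of the spleen of leukaemic mice of strain C57BL/6. All 8 carry Eµ-TCL1A, in which the Eµ immunoglobulin enhancer drives the TCL1A oncogene in B cells and gives a model of chronic lymphocytic leukaemia. In 4 libraries (genotype Kdm1aKD;Eµ-TCL1A, called knockdown; replicates 1, 2, 4 and 5) doxycycline was used to induce knockdown of Kdm1a, a histone lysine demethylase, and the other 4 (Eµ-TCL1A, called control; replicates 1 to 4) carry the leukaemia transgene alone. The labels do not give ages, the cells in which the knockdown construct acts, whether control mice received doxycycline, or which animal each library came from, and the spread that p-values rest on may therefore be technical. In such bulk RNA, fewer cells of a type and less RNA per cell cannot be told apart.

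Protease-activated receptors are activated when a protease cuts their extracellular end and exposes a tethered ligand. F2r (PAR1), F2rl2 (PAR3) and F2rl3 (PAR4) are cut by thrombin, F2rl1 (PAR2) mainly by trypsin-like proteases, and mouse platelets respond to thrombin through PAR3 and PAR4. Inside the cell, Gq-class subunits activate phospholipase C beta, and G12/13-class subunits are known for signalling to the actin cytoskeleton. Gnaq, Gna11, Gna12 and Gna13 are expressed in most tissues, whereas Gna15 is mainly a haematopoietic subunit that couples to many receptors.

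The 10 genes lie in 3 neighbouring sets and 3 single places on GRCm38. On chromosome 13, F2rl1 (ENSMUSG00000021678, chr13:95511732-95525227, minus strand), F2r (ENSMUSG00000048376, chr13:95601803-95618487, minus strand) and F2rl2 (ENSMUSG00000021675, chr13:95696853-95702739, plus strand) follow each other. F2rl3 (ENSMUSG00000050147, chr8:72761880-72763874, plus strand) stands alone. Gna15 (ENSMUSG00000034792, chr10:81502306-81524225, minus strand) and Gna11 (ENSMUSG00000034781, chr10:81528724-81545190, minus strand) are tandem neighbours 4498 bases apart, as are Gnaq (ENSMUSG00000024639, chr19:16132831-16387463, plus strand) and Gna14 (ENSMUSG00000024697, chr19:16435762-16610820, plus strand), 48298 bases apart. Gna12 (ENSMUSG00000000149, chr5:140758408-140830431, minus strand) and Gna13 (ENSMUSG00000020611, chr11:109362831-109401369, plus strand) are single genes.

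Promoter sequences of up to 250 bases before the start site, from RefSeq (GRCm38.p6), were matched for 9 of the 10 genes; F2rl1 had no entry in the table used. The 3 receptor promoters are shown because F2r, F2rl2 and F2rl3 were all higher in knockdown while their sequences differ in kind. They are written 5′ to 3′ on the gene's strand, and capitals mark a GATA motif, searched as AGATAA or TGATAA on both strands. Bases that GENCODE places inside the gene are left off the 3′ end.
F2r, chr13:95618488-95618716, minus strand: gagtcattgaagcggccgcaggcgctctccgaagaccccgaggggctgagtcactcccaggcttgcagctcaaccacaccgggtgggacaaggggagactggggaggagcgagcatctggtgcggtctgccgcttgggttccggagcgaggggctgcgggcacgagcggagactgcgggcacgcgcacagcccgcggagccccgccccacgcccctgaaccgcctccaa
F2rl2, chr13:95696670-95696852, plus strand: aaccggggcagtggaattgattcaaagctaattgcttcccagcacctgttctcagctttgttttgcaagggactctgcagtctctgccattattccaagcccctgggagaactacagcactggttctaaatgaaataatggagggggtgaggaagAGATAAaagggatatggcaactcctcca
F2rl3, chr8:72761409-72761658, plus strand: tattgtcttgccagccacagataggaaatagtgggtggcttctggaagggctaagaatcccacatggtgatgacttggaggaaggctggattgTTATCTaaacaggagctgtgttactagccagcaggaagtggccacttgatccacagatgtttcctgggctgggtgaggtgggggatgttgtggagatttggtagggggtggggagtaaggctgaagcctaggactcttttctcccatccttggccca
The motif occurred once in F2rl2, 95 bases before the RefSeq start, once in F2rl3, 157 bases before it, and in none of the other 7 promoters. It was present in 16.6% of all 32851 promoters of this length, in 9.94% of the 11657 belonging to genes fitted and in 11.8% of the 1374 belonging to fitted genes that were higher in knockdown without overlap. F2r is instead rich in G and C, which made up 70.8% of its 250 bases against a median of 52.4% over all promoters, 48.4% in F2rl2 and 52.0% in F2rl3.

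The tandem pairs are shown because the 2 genes of each pair behaved differently, and here capitals mark each CG dinucleotide.
Gna15, chr10:81524226-81524475, minus strand: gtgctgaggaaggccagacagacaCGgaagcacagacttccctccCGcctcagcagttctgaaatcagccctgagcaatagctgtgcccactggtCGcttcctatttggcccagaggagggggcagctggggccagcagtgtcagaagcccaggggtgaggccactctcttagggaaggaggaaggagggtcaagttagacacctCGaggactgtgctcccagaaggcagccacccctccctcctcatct
Gna11, chr10:81545191-81545412, minus strand: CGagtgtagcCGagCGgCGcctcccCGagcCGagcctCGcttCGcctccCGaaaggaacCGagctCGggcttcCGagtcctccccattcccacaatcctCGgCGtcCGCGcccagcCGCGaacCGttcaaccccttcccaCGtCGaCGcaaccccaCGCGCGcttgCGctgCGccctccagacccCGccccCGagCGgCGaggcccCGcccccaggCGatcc
Gna14, chr19:16435417-16435666, plus strand: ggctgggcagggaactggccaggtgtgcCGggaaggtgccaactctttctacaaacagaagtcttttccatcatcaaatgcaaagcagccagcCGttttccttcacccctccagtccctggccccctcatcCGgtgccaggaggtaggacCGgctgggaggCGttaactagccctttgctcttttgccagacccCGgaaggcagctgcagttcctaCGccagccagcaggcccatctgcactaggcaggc
Gnaq, chr19:16132434-16132683, plus strand: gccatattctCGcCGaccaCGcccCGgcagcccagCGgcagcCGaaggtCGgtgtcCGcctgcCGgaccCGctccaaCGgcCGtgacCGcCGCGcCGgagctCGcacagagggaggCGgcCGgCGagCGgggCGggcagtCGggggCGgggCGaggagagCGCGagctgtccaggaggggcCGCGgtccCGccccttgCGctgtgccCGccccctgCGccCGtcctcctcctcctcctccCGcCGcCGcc
Gna11 and Gnaq have 33 and 37 CG dinucleotides in these windows, whereas Gna15 has 4 and Gna14 has 7, against a median of 6 in 250 bases over all promoters. Over the full 250 bases, the 6 genes that were higher in knockdown without overlap had 0 to 24 CG dinucleotides (F2rl3 0, F2rl2 1, Gna15 4, Gna14 7, Gna12 20, F2r 24). The 3 matched genes with overlapping groups had 33 (Gna13), 37 (Gnaq) and 38 (Gna11). The members were chosen with the group differences known, so this is a description of 9 promoters with no test. These counts describe the letters of the windows and nothing about methylation or binding was measured.

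Kdm1a itself was lower in the knockdown libraries. Levels are in FPKM, and means are given ± SD over the 4 libraries of a group. Kdm1a had 20.2, 21.0, 15.5 and 15.6 in knockdown replicates 1, 2, 4 and 5 and 24.2, 21.2, 24.1 and 31.1 in control replicates 1 to 4. The knockdown mean was 71.9% of the control mean, with a two-sided exact permutation p of 0.0286, the smallest that 70 assignments allow, and a limma adjusted p of 0.223 over all genes. Estimated depth lay between 37400000 and 43800000 fragments per library, and a single fragment of a 1 kb transcript added 0.0228 to 0.0268 FPKM. Markers of B cells, the labelled leukaemic cells, summed to 1310 to 3480 FPKM in knockdown and 3890 to 4423 FPKM in control libraries. Of the 10 genes in that sum, 0 had a positive log2 difference. However, 0 were lower without overlap and 0 had a limma adjusted p under 0.05. Xist was at 94.9 to 175 FPKM in the 4 knockdown libraries and control replicate 1 and at most 0.128 FPKM in the other 3 controls, so sex and group were nearly the same split. In 6 of the 10 genes (F2r, F2rl1, F2rl2, F2rl3, Gna12, Gna14) control replicate 1 was the highest control, as it was in 25.8% of genes fitted.

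Of the 10 genes, 6 were higher in every knockdown library than in any control library (F2r, F2rl2, F2rl3, Gna12, Gna14, Gna15), the groups of the other 4 overlapped (F2rl1, Gnaq, Gna11, Gna13), and none was lower without overlap. Among all genes fitted, 11.2% were higher without overlap and 1.9% lower without overlap; 5 of the 9 fitted members were higher without overlap. With limma and Benjamini-Hochberg adjustment over all genes, 4 of the 9 fitted members (F2r, Gna12, Gna14, Gna15) passed a threshold of 0.05 as higher and 0 as lower, where the background was 1.63% of genes higher and 0.109% lower. Because the members were chosen with this contrast known, nothing is read from these counts. None of the 4 passed with sex as a covariate, with replicate number as a block or with no filter on low values. With each library left out in turn, F2r passed in 8 of 8 fits, Gna12 in 2, and Gna14 and Gna15 in 3 each. F2rl2 and Gna14 reached 1 FPKM in 0 control libraries and entered the fit only through knockdown. The median log2 difference was 1.18 over the 9 fitted members and 0.13 over all genes fitted. The first of these is the value of F2rl2 itself, so it depends on that filter and nothing is read from it.

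**Figure D1:**
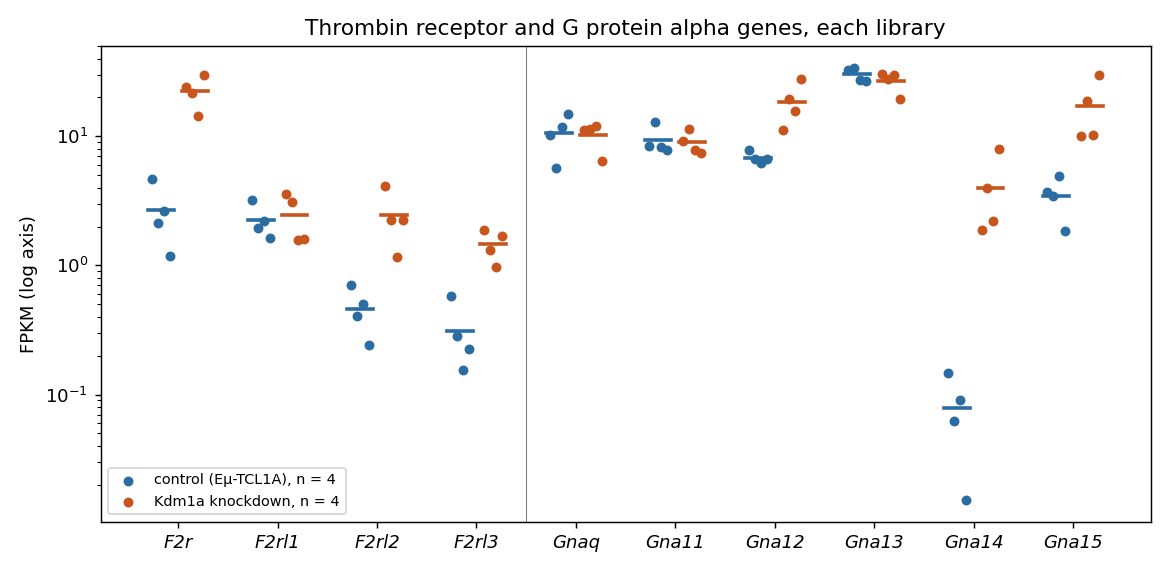
FPKM of each of the 10 genes on a log axis, with a point for each of 4 control (blue) and 4 knockdown (orange) libraries in replicate order from the left within each group (1, 2, 3, 4 for control; 1, 2, 5, 4 for knockdown) and a line at the group mean. F2r, F2rl2, F2rl3, Gna12, Gna14 and Gna15 have no overlap between the groups, while F2rl1, Gnaq, Gna11 and Gna13 overlap.

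F2r, the main thrombin receptor of many non-platelet cells, had the largest difference of the 9 fitted genes on the log2(FPKM + 1) scale, whereas Gna14 had the larger ratio of means and, with a pseudocount of 0.1, the larger log2 difference (4.35 against 3.15). Its FPKM were 24.1, 21.8, 29.9 and 14.4 in knockdown replicates 1, 2, 4 and 5 and 4.71, 2.14, 2.62 and 1.18 in control replicates 1 to 4. Every knockdown library was above every control, and the widest gap in level among controls was that between control replicate 1 and the rest. The means were 22.6 ± 6.42 and 2.66 ± 1.49 FPKM (SD, n = 4 each), a ratio of 8.47, and the difference on the log2(FPKM + 1) scale was 2.73 ± 0.31 (SE), with a 95% interval of 2.02 to 3.43. That scale adds 1 to each value and so understates differences of genes at low level. Against control replicate 1 alone, the only control with Xist, the log2 difference was 2.002.

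F2rl2, which on mouse platelets presents thrombin to PAR4, was higher in knockdown at a low level. Its FPKM were 4.14, 2.24, 2.24 and 1.16 in knockdown replicates 1, 2, 4 and 5 and 0.702, 0.406, 0.500 and 0.241 in control replicates 1 to 4. The groups did not overlap, and knockdown replicate 1 was the highest library. The means of 2.44 ± 1.24 and 0.462 ± 0.192 FPKM gave a ratio of 5.29 and a log2 difference of 1.18 ± 0.26 (SE; 95% interval 0.59 to 1.76). That value depends on the pseudocount, being 2.11 with 0.1 and 0.43 with 5 added to each FPKM. F2rl2 lies wholly inside Iqgap2, on the opposite strand, and 0 of the 36 annotated Iqgap2 exons overlap its span. Whether counting used strand is not given in the sources used here, so fragments from intronic Iqgap2 RNA could not be told apart from F2rl2.

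F2rl3, which encodes PAR4, the receptor that signals to thrombin on mouse platelets, had 1.89, 1.31, 1.69 and 0.978 FPKM in knockdown replicates 1, 2, 4 and 5. Control replicates 1 to 4 had 0.578, 0.284, 0.156 and 0.224 FPKM. The groups did not overlap, and the means of 1.47 ± 0.406 and 0.311 ± 0.186 FPKM gave a ratio of 4.72. With 3 libraries at 1 FPKM or more F2rl3 missed the filter by 1 library, and in the fit with no filter its log2 difference was 0.91 ± 0.16 (SE; 95% interval 0.53 to 1.29).

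F2rl1, the trypsin-sensitive PAR2, differed from the other receptors in showing overlapping groups. It had 3.60, 3.12, 1.60 and 1.58 FPKM in knockdown replicates 1, 2, 4 and 5 and 3.21, 1.96, 2.20 and 1.64 FPKM in control replicates 1 to 4. Its log2 difference was 0.07 ± 0.25 (SE), and the 95% interval of −0.50 to 0.64 leaves room for a difference either way. F2rl1 took 41.5% ± 6.20 of the summed receptor FPKM in control and 8.71% ± 2.98 in knockdown libraries, while F2r took 44.9% ± 6.52 and 77.99% ± 5.42 (SD, n = 4 each). The receptor sum lay between 3.29 and 9.20 FPKM in control and between 18.1 and 35.5 FPKM in knockdown. The control spleens held F2r and F2rl1 RNA at overlapping levels, and F2r was the most abundant receptor in each knockdown library.

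**Figure D2:**
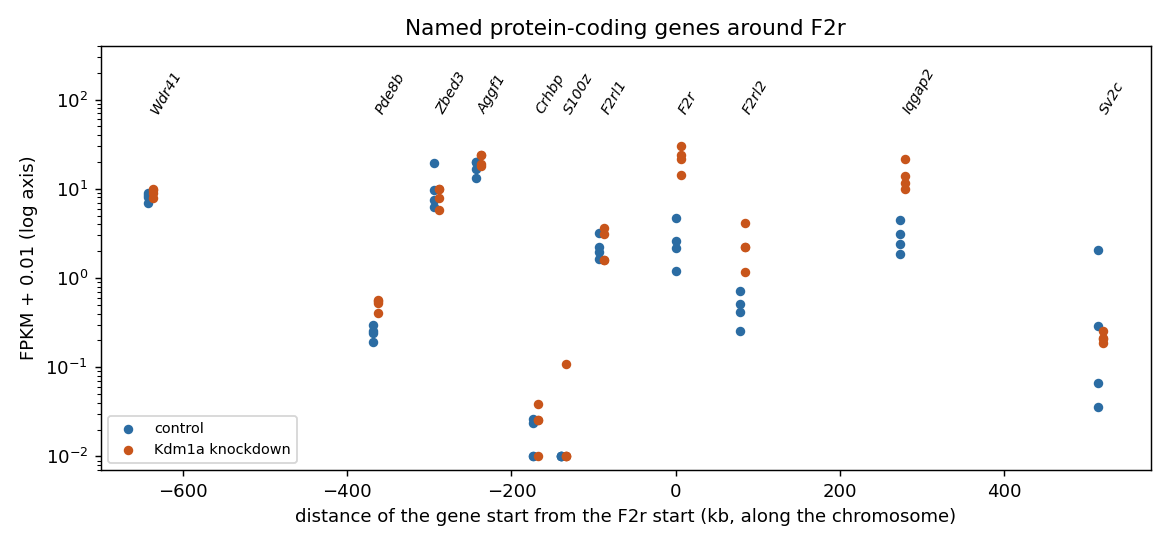
FPKM (plus 0.01, log axis) of the named protein-coding genes around F2r, placed by the distance in kilobases of each gene's start from that of F2r, with a point per control (blue) and knockdown (orange) library. F2r, F2rl2, Iqgap2 and, at a low level, Pde8b have no overlap between the groups, while F2rl1 and Aggf1 overlap.

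The neighbours of the receptor cluster were looked at for the same pattern. Iqgap2, which encodes a scaffold protein of the actin cytoskeleton, starts beyond F2rl2, and the end of its span lies 8689 bases from F2r. It had 11.7, 14.0, 21.9 and 9.98 FPKM in knockdown replicates 1, 2, 4 and 5 and 4.49, 2.42, 3.07 and 1.86 FPKM in control replicates 1 to 4. The groups did not overlap, and Iqgap2 rose by 1.95 ± 0.28 (SE) on the log2 scale (limma adjusted p = 0.0141). That call was lost without control replicate 2, 3 or 4 or knockdown replicate 2, with limma adjusted p-values of up to 0.071. Aggf1, on the other side of F2rl1, had 21.2 ± 3.26 FPKM in knockdown and 17.4 ± 3.35 FPKM in control libraries, and its groups overlapped. Pde8b, further out on that side, was too low to be fitted but higher without overlap. It had 0.505 ± 0.0784 FPKM in knockdown and 0.238 ± 0.0438 FPKM in control libraries. Sin3b, 3678 bases from F2rl3 on chromosome 8, had overlapping groups with means of 67.3 ± 3.82 and 70.4 ± 15.4 FPKM.

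In the Gq class the widely expressed subunits and the more restricted ones separated. Gnaq, the subunit that couples PAR1 and PAR4 to phospholipase C in many cells, had 11.2, 11.4, 6.43 and 12.1 FPKM in knockdown replicates 1, 2, 4 and 5. Control replicates 1 to 4 had 10.2, 5.69, 11.8 and 14.8 FPKM. The groups overlapped almost completely, with 1 low library in each, and the log2 difference was −0.01 ± 0.29 (SE; 95% interval −0.67 to 0.65). Gna11, the close paralogue of Gnaq, had 9.18, 11.5, 7.43 and 7.84 FPKM in the same knockdown libraries and 8.34, 12.9, 8.29 and 7.87 FPKM in controls. Its groups overlapped too, with a log2 difference of −0.05 ± 0.21 (SE; 95% interval −0.52 to 0.43).

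Gna15, the haematopoietic subunit, had 9.99, 18.8, 29.9 and 10.3 FPKM in knockdown replicates 1, 2, 4 and 5 and 3.70, 3.44, 4.89 and 1.86 FPKM in control replicates 1 to 4. Each knockdown library was above each control, and knockdown replicates 2 and 4 stood highest. The means of 17.2 ± 9.38 and 3.47 ± 1.25 FPKM (SD, n = 4 each) gave a ratio of 4.97 and a log2 difference of 1.94 ± 0.36 (SE; 95% interval 1.13 to 2.75). Its tandem neighbour Gna11 and S1pr4, a sphingosine phosphate receptor gene 2173 bases to its other side, both had overlapping groups. S1pr4 had 35.2 ± 6.66 FPKM in knockdown and 31.5 ± 5.52 FPKM in control libraries.

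Gna14, a Gq-class subunit of restricted expression, was near the limit of detection in controls. It had 1.88, 3.98, 7.95 and 2.20 FPKM in knockdown replicates 1, 2, 4 and 5 and 0.146, 0.0621, 0.0905 and 0.0152 FPKM in control replicates 1 to 4. The lowest knockdown library was 12.9 times the highest control. The control values rest on an estimated 1.90 to 21.0 fragments per library, so the ratio of means of 51.1 is imprecise. On the log2(FPKM + 1) scale the difference was 2.06 ± 0.33 (SE; 95% interval 1.32 to 2.80), and with pseudocounts of 0.1 and 5 it was 4.35 and 0.78. Of the genes nearest to this pair, Vps13a, 4545 bases beyond Gna14, had overlapping groups at 25.2 ± 2.59 and 26.9 ± 4.51 FPKM. Cep78, 147841 bases before Gnaq, was higher without overlap at 6.95 ± 2.67 against 3.03 ± 0.348 FPKM (limma adjusted p = 0.0855).

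These differences altered the makeup of the Gq class RNA. Gna15 took 14.8% ± 5.11 of the summed FPKM of the 4 subunits in control and 40.4% ± 12.5 in knockdown libraries, and Gna14 took 0.339% ± 0.243 and 9.17% ± 4.30 (SD, n = 4 each). Gna11 took 32.1% to 58.5% in control and 14.4% to 28.5% in knockdown libraries. Gnaq took 25.7% to 60.3% in control and 12.4% to 37.3% in knockdown libraries, ranges that overlap. The sum of the class lay between 22.1 and 25.0 FPKM in control and between 32.2 and 51.7 FPKM in knockdown. Shares of a fixed total move together, so the lower shares of Gna11 and Gnaq are not differences in their own levels, which overlapped.

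**Figure D3:**
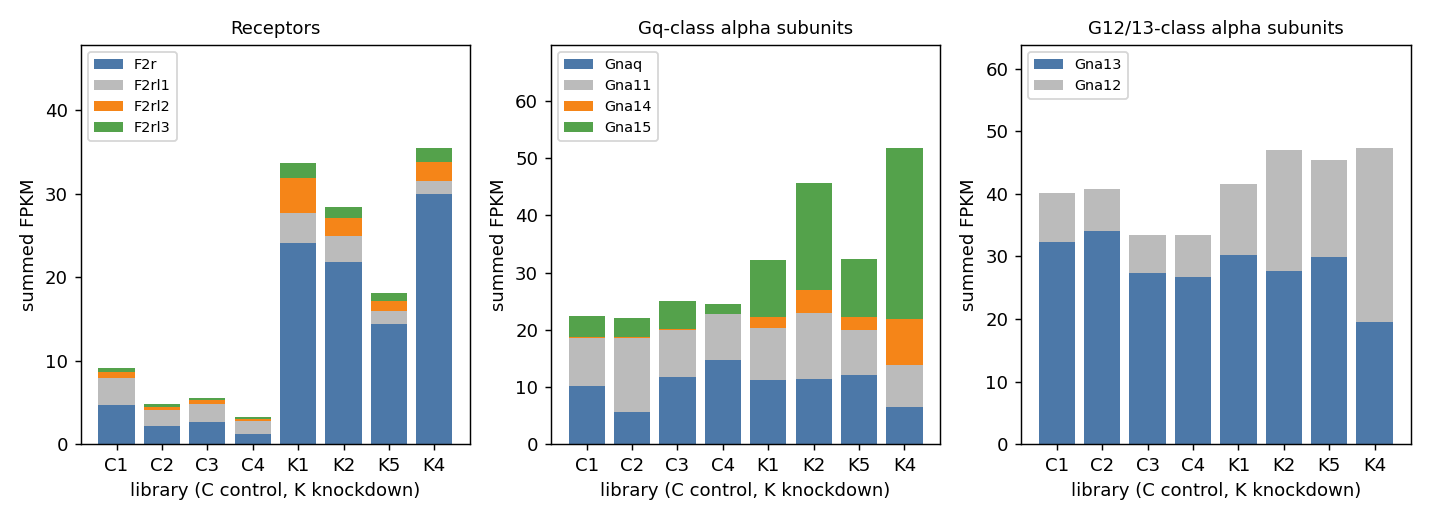
Summed FPKM of the 4 receptors, the 4 Gq-class and the 2 G12/13-class subunits in each library (C control, K knockdown, with replicate number), stacked by gene. F2r, Gna15 and Gna14, and Gna12 take larger shares in the 4 knockdown libraries than in the 4 control libraries.

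In the G12/13 class, Gna12 and Gna13 showed the same kind of split. Gna12, one of the subunits to which PAR1 couples, had 11.3, 19.3, 27.8 and 15.6 FPKM in knockdown replicates 1, 2, 4 and 5. Control replicates 1 to 4 were close together at 7.82, 6.72, 6.19 and 6.69 FPKM. The groups did not overlap, the means of 18.5 ± 7.05 and 6.85 ± 0.689 FPKM (SD, n = 4 each) gave a ratio of 2.70, and the log2 difference was 1.25 ± 0.25 (SE; 95% interval 0.68 to 1.81). Against control replicate 1 alone it was 1.07.

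Gna13, which in B cells is required for their confinement to germinal centres, had the highest mean FPKM of the 10 genes in both groups. It had 30.3, 27.7, 19.5 and 29.9 FPKM in knockdown replicates 1, 2, 4 and 5 and 32.4, 34.1, 27.3 and 26.7 FPKM in control replicates 1 to 4. The groups overlapped, with knockdown replicate 4 the lowest library, and the log2 difference was −0.17 ± 0.19 (SE; 95% interval −0.59 to 0.24). Gna12 took 16.5% to 20.01% of the summed FPKM of the pair in control and 27.1% to 58.9% in knockdown libraries. Knockdown replicate 4 was the only library in which Gna12 exceeded Gna13.

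**Figure D4:**
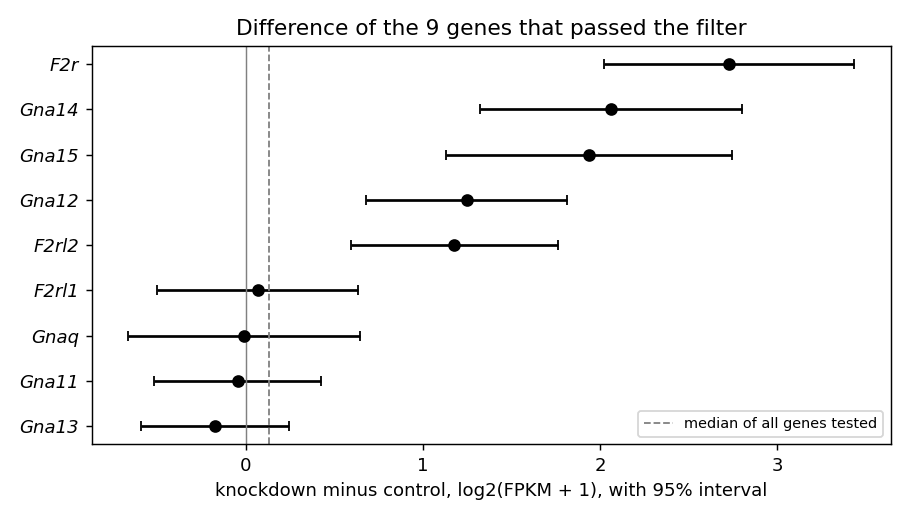
Difference between knockdown and control on the log2(FPKM + 1) scale for the 9 genes that passed the filter, with points at the estimate and bars for the 95% interval; the dashed line is the median of all genes fitted, 0.13. The intervals of F2r, Gna14, Gna15, Gna12 and F2rl2 lie above 0, and those of F2rl1, Gnaq, Gna11 and Gna13 include 0.

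By mean control level per length, the order was Gna13, Gnaq, Gna11, Gna12, Gna15, F2r, F2rl1, F2rl2, F2rl3 and Gna14. Ranges of neighbours in that order overlapped for Gnaq and Gna11, Gna15 and F2r, F2r and F2rl1, and F2rl2 and F2rl3. They did not for Gna13 and Gnaq, Gna11 and Gna12, Gna12 and Gna15, F2rl1 and F2rl2, and F2rl3 and Gna14. In knockdown the order of means was Gna13, F2r, Gna12, Gna15, Gnaq, Gna11, Gna14, F2rl1, F2rl2 and F2rl3. That places the means of F2r, Gna12 and Gna15 ahead of those of Gnaq and Gna11. The knockdown ranges of Gna12 and Gna15 overlapped those of Gnaq and Gna11. In replicates 1 and 5 Gna15 was below Gnaq (9.99 and 10.3 against 11.2 and 12.1 FPKM). Fragments that fall in runs shared between paralogues cannot be assigned to 1 gene. The longest run of bases shared exactly between annotated coding transcripts was 17 among the receptors, for F2r and F2rl2, and 38 among the alpha subunits, for Gnaq and Gna11.

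Among the 4 knockdown libraries the 6 genes without overlap did not vary together as 1 set. Gna12, Gna14 and Gna15 all had the order replicate 1, 5, 2, 4 from low to high. That order was shown by 13.5% of all genes fitted and by 44.7% (645) of fitted genes higher without overlap. F2rl2 and F2rl3 had the order 5, 2, 4, 1, shown by 1.2% of genes fitted and 1.45% of those higher without overlap, although F2rl2 in replicates 2 and 4 was equal to 3 digits. F2r had the order 5, 2, 1, 4. These orders describe 4 libraries and are given without a test.

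Summed markers of 2 blood cell lineages had the same orders. Erythroid markers (14 found of 15 listed, headed by the haemoglobin genes) summed to 1014, 2674, 29980 and 1109 FPKM in knockdown replicates 1, 2, 4 and 5 and to 3183 to 8411 FPKM in controls. The sums of replicates 1, 2 and 5 were below every control and that of replicate 4 above, so the groups overlapped. The order in knockdown was that of Gna12, Gna14 and Gna15, which were above every control in each knockdown library. Of these 14 genes, Gata1, Klf1, Epor and Car1 were higher without overlap, and only Gata1, the erythroid and megakaryocytic GATA factor, rose in the fit, with 58.2 ± 49.4 against 6.14 ± 0.583 FPKM (SD, n = 4; limma adjusted p = 0.0254). The 15 megakaryocyte and platelet markers summed to 84.0, 58.1, 69.4 and 28.8 FPKM in knockdown replicates 1, 2, 4 and 5 and 9.94 to 22.7 FPKM in controls, without overlap and in the order of F2rl2 and F2rl3. Of the 15, 8 were higher without overlap and 1, Tubb1, was lower. Of the 8 that were fitted, 4 were higher without overlap, where 11.2% of all genes fitted were. None was at 0 in all libraries and Gp6 stayed below 1 FPKM. Ppbp, also a platelet chemokine, had a lower mean in knockdown with overlapping groups, at 0.916 ± 0.165 against 2.05 ± 0.806 FPKM (limma adjusted p = 0.177). Pf4, another platelet chemokine, rose from 3.18 ± 1.93 to 20.1 ± 7.55 FPKM (limma adjusted p = 0.0311). Itga2b, the platelet integrin chain, rose from 2.20 ± 0.339 to 9.66 ± 4.51 FPKM (limma adjusted p = 0.0454). With each library left out in turn the calls held in 3 of 8 fits for Gata1, 2 for Pf4 and 1 for Itga2b. Each was lost without any 1 of the 4 controls or without knockdown replicate 2. The part of these cells in the receptor and alpha subunit values was not tested.

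**Figure D5:**
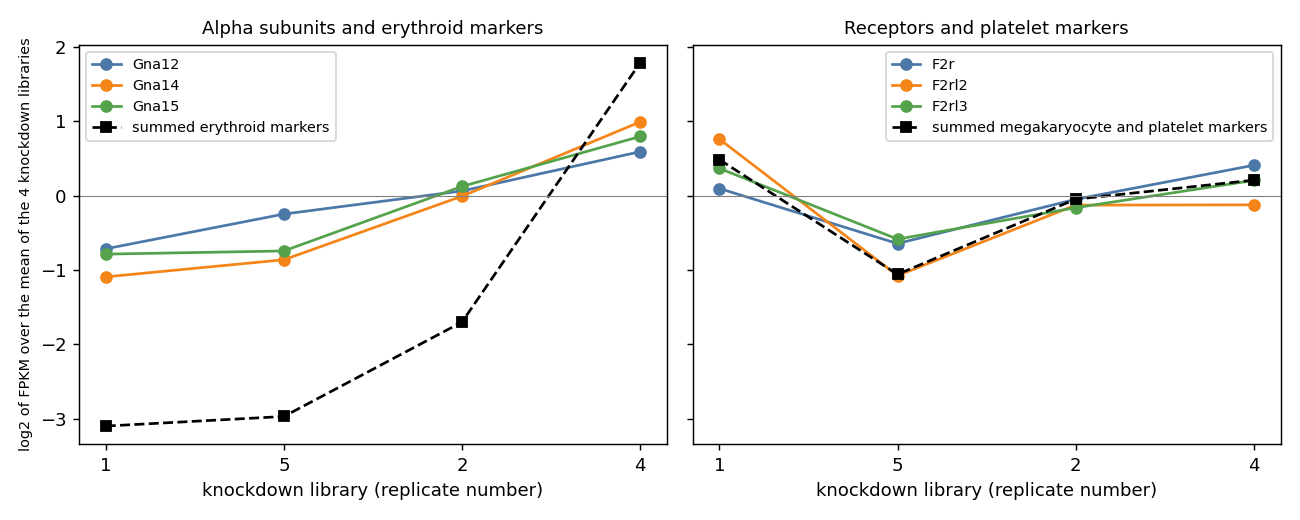
Log2 of FPKM over the mean of the 4 knockdown libraries, by knockdown replicate number, for Gna12, Gna14 and Gna15 with the summed erythroid markers (left) and for F2r, F2rl2 and F2rl3 with the summed megakaryocyte and platelet markers (right). The 3 alpha subunits are lowest in replicate 1 and highest in replicate 4, as is the erythroid sum, and F2rl2 and F2rl3 are lowest in replicate 5 and highest in replicate 1, as is the platelet sum. Controls are not drawn. Against them, the erythroid sum was lower in replicates 1, 2 and 5, unlike the alpha subunits.

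Monocyte and macrophage markers summed to 505 to 970 FPKM in knockdown and 150 to 376 FPKM in control libraries. Of the 12 genes, 2 were higher without overlap and 0 passed the threshold. Lyz2 had the highest mean of the 12 in both groups, at 317 ± 150 and 123 ± 80.6 FPKM, and its own groups overlapped. Summed endothelial markers lay at 29.6 to 55.1 and 38.5 to 52.9 FPKM. Most of that sum was Pecam1, at 40.1 ± 12.2 FPKM in knockdown and 43.25 ± 6.43 FPKM in control libraries, with overlapping groups. Of the 10 endothelial genes, 3 were higher without overlap (Kdr, Tek and Tie1), and all 3 were too low to be fitted. All 10 stromal markers stayed below 1 FPKM, with Lum at 0. Mast cell and basophil markers summed to 9.72 to 18.3 and 3.81 to 14.5 FPKM with Tpsab1 at 0. Neutrophil markers summed to 29.8 to 210 FPKM in knockdown and 70.3 to 458 FPKM in controls, and of the 10 genes 4 were lower without overlap and 1, Mpo, was higher. The granule genes Ngp, Camp and Ltf fell, from 24.9 ± 18.6 to 0.768 ± 0.585 FPKM, from 11.6 ± 9.22 to 0.372 ± 0.283 FPKM and from 6.30 ± 4.26 to 0.492 ± 0.435 FPKM (limma adjusted p = 0.0189, 0.0132 and 0.0485). All 3 calls were lost without control replicate 3 or 4 or knockdown replicate 2. T and NK cell markers summed to 213 to 449 and 114 to 409 FPKM. The part of each in the values was not tested. Without replicate 4 of both groups, the libraries of highest erythroid markers in knockdown and lowest FPKM total in control, the log2 difference was 2.36 for F2r, 1.11 for F2rl2, 1.03 for Gna12, 1.70 for Gna14 and 1.44 for Gna15.

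The genes most alike to each member were taken by Pearson correlation of log2(FPKM + 1) over the 8 libraries, which share the group difference, so no p is given. For F2r they were Elovl6 (r = 0.995), Arhgap6 (0.990) and Iqgap2 (0.988). For F2rl2 they were Cavin2 (r = 0.982), Itgb3 (0.979) and Gcnt2 (0.978), and Itgb3, the platelet integrin beta chain, is 1 of the 15 platelet markers. For Gna12 they were Epdr1 (r = 0.997), Slc25a21 (0.996) and Pklr (0.994), Pklr being the pyruvate kinase of liver and red cells. Gna14 was closest to Ephx2, Snx31 and Gmpr (each r = 0.998), and Gna15 to Acadvl (0.991), Stard10 (0.990) and Itpripl1 (0.989). Of the members whose groups overlapped, F2rl1 was closest to Ggt1 (r = 0.988), Hs3st3b1 (0.984) and Trmt13 (0.983). Gnaq was closest to Tnfaip1 (0.950), Il15ra (0.944) and Tpm3-rs7 (0.933), and Gna11 to Tnni2 (0.939), Glyctk (0.939) and Slc35c2 (0.934). Gna13 was closest to Slc38a1 (0.979), Dennd1b (0.975) and Tbc1d23 (0.969).

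The wider pathway was described by 7 lists, of which 130 genes were found. Of 83 fitted, 2 rose and 0 fell at a limma adjusted p under 0.05, with 11 higher and 4 lower at an unadjusted p under 0.05, and 5 were higher and 3 lower without overlap. The 2 rises are 2.41% of the 83, near the 1.63% of all genes called higher, and the 5 higher without overlap are 6.02%, against 11.2% of all genes. For the 3 lower without overlap, the share over all genes was 1.9%. No share over all genes is given for the counts at an unadjusted p, so nothing is read from them. The median log2 difference over the 83 was −0.07, with 39 positive, against 0.13 over all genes, of which 63.7% were positive. The count of 2 rises was 0 without control replicate 2, 3 or 4 or knockdown replicate 2, and 1 without control replicate 1. Gnb4 passed in 4 and Tfpi in 2 of the 8 fits.

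Among proteases that cut these receptors and their cofactors and inhibitors, 19 genes were found and 8 fitted. Tfpi, the inhibitor of the tissue factor pathway that starts thrombin generation, rose from 1.04 ± 0.298 to 5.83 ± 3.95 FPKM (SD, n = 4 each), a log2 difference of 1.61 ± 0.33 (SE; limma adjusted p = 0.0471). The neutrophil serine proteases Prtn3, Ctsg and Elane had the next smallest p-values, none past the threshold, and their groups overlapped. Prtn3 had 15.8 ± 14.4 FPKM in knockdown and 2.86 ± 2.28 FPKM in control libraries (limma adjusted p = 0.131). The neutrophil granule genes Ngp, Camp and Ltf, given above, went the other way. F2, the thrombin precursor made in liver, was higher without overlap at 0.256 ± 0.138 against 0.0163 ± 0.0175 FPKM, but too low to be fitted. Of the 19 genes, 4 were higher without overlap and 0 lower, and of the 8 fitted, 1 was higher without overlap.

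Of the other alpha subunits, 4 of 10 were fitted and 0 passed the threshold. Gnas, which encodes the stimulatory subunit Gs alpha, was at 224, 208, 175 and 214 FPKM in knockdown replicates 1, 2, 4 and 5 and 239, 237, 233 and 394 FPKM in control replicates 1 to 4, lower without overlap but with a limma adjusted p of 0.346. Gnai2, the main inhibitory subunit of lymphocytes, had 286 ± 47.5 and 345 ± 36.4 FPKM, and Gnal had 2.82 ± 0.467 and 2.29 ± 0.753 FPKM, both with overlapping groups. Of the beta and gamma subunits, 11 of 17 were fitted. Gnb4, a beta subunit, rose from 1.19 ± 0.775 to 5.57 ± 1.92 FPKM (log2 difference 1.60 ± 0.29, SE; limma adjusted p = 0.0292). Gnb3, Gng11 and Gng13 had lower means in knockdown with overlapping groups, and Gnb3 had 24.5 ± 17.6 against 84.2 ± 58.6 FPKM (limma adjusted p = 0.143).

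None of the 15 fitted Gq effectors passed the threshold. Plcb4, a phospholipase C beta that Gq activates, had 2.74 ± 0.662 FPKM in knockdown and 0.979 ± 0.292 FPKM in control libraries (log2 difference 0.92, limma adjusted p = 0.0569). Arhgef25, a guanine nucleotide exchange factor activated by Gq, had 3.15 ± 1.93 and 0.522 ± 0.191 FPKM (log2 difference 1.34, limma adjusted p = 0.0708). Both were higher without overlap, but Arhgef25 reached 1 FPKM in 0 control libraries and entered the fit only through knockdown. Trio, another such factor, had overlapping groups at 14.6 ± 5.12 and 29.3 ± 16.3 FPKM.

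Of RGS proteins, receptor kinases, arrestins and chaperones, 31 were found and 21 fitted, and 0 passed the threshold. Rgs12, which speeds GTP hydrolysis by alpha subunits, was higher without overlap at 21.6 ± 14.9 against 4.08 ± 1.15 FPKM (log2 difference 1.95, limma adjusted p = 0.0553), in the knockdown order of Gna12, Gna14 and Gna15. Rgs18, an RGS protein of platelets and their precursors, had 9.80 ± 2.16 and 4.24 ± 3.56 FPKM, and Gpsm2 had 10.3 ± 7.81 and 4.24 ± 0.634 FPKM, both with overlapping groups. Of other receptors that couple to these subunits, 9 of 20 were fitted and 0 passed. S1pr3, a sphingosine phosphate receptor, was lower without overlap at 12.4 ± 6.05 against 27.2 ± 4.11 FPKM (log2 difference −1.22, limma adjusted p = 0.143). Ptafr, the platelet-activating factor receptor, had 1.81 ± 0.578 and 0.794 ± 0.264 FPKM, and Lpar5 had 7.42 ± 1.22 and 9.41 ± 1.58 FPKM, both with overlapping groups.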

How the data were processed

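The values are FPKM that the authors deposited in 1 table of 54018 gene identifiers and 8 libraries; CASAVA and Cufflinks are named in the submitters' processing notes. Tool versions, aligner, build and strand setting: not given in the sources used here. Identifiers were named with GENCODE M21 (53865 matched), and 25157 were at 0 in every library. Genes that reached 1 FPKM in 4 or more of 8 libraries were compared on log2(FPKM + 1) with limma 3.58.1 (mean-variance trend, R 4.3.3), adjusted by Benjamini-Hochberg at 0.05; the fit was tested on simulated data. Depth came from the spacing of low values of transcripts of at least 1500 bases, of which 81.5% to 95.6% lay within 5% of whole fragments.

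The members and lists were chosen with earlier results of these data known. The named genes are the members, Kdm1a, of each pathway list the genes past the threshold and up to 3 more with the smallest p, and the 3 genes most correlated with each fitted member. F2, the neighbours of members and single markers were chosen after their values were seen. The results of 1 of the 7 lists are not reported here. Alternatives changed the pseudocount, filter, scaling, test, replicate block, covariate and libraries. Promoters came from RefSeq, and plots were made with matplotlib 3.10.9.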

Additional observations from a re-analysis of the deposited data

Results flagged for a closer look

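In 6 of 68 groups of 4 libraries tested, the library at one end lay far from the others by Dixon's criterion at the 95% level, which compares the gap with the whole range; chance does this in about 1 in 20 groups. Of the members, Gnaq had 6.43 FPKM in knockdown replicate 4 against 11.2 to 12.1 FPKM in the other 3, and Gna11 had 12.9 FPKM in control replicate 2 against 7.87 to 8.34 FPKM. Of the pathway genes, Tfpi had 11.7 FPKM in knockdown replicate 4 against 3.19 to 4.25 FPKM, and Gng13 had 12.7 FPKM in knockdown replicate 5 against 0.522 to 2.32 FPKM. Control replicate 4 held the other two, Gnas at 394 FPKM against 233 to 239 FPKM and Rgs12 at 5.79 FPKM against 3.36 to 3.60 FPKM.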

How the results depend on the processing

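No member difference of F2r, F2rl2, Gna12, Gna14 or Gna15 turned negative under any of the alternatives run, and Gna13 was negative in all 19. F2rl1 was negative in 6 of 18, and Gnaq and Gna11 each in 14 of 19. With sex as a covariate, where the difference rests on control replicate 1, F2r was 2.002, F2rl1 −0.33, F2rl2 0.95, Gna12 1.07, Gna14 1.97 and Gna15 1.82. The count of genes past the threshold, 224, was 761 with array weights, 71 with a mean of at least 5 FPKM, 2 with no filter, 24 with a pseudocount of 5, 126 after quantile normalization, 120 without replicate 4 of both groups, and 8 to 333 with 1 library left out. The count of pathway genes higher, 2, was 5 with array weights, 4 with a pseudocount of 0.1, 1 after median-of-ratios scaling or without replicate 4 of both groups, and 0 with a mean of at least 5 FPKM, no filter, a pseudocount of 5 or quantile normalization, and 0 to 3 with 1 library left out. That of pathway genes lower, 0, was 1 with array weights and 0 to 1 with 1 library left out. The Kdm1a log2 difference of −0.45 was −0.29 without replicate 4 of both groups and −0.53 to −0.35 with 1 library left out. In these last fits the exact permutation p was 0.0286 without control or knockdown replicate 2. It was weaker, at 0.0571 to 0.114, without any other single library. Without replicate 4 of both groups the exact permutation p was 0.1, the smallest that the remaining libraries allow. With replicate number as a block, 0 genes passed the threshold, 0 pathway genes were higher, and the Kdm1a difference was −0.41 (exact permutation p = 0.25). Only replicates 1, 2 and 4 occur in both groups, and 0.25 is the smallest p that so few pairs allow. The numbers were not shown to pair libraries, since deviations of same-numbered libraries correlated at 0.16, 0.05 and −0.12 for replicates 1, 2 and 4. The cause of these shifts was not tested. All genes together shifted by a median of 0.13, which was −0.01 after median-of-ratios scaling and −0.03 after quantile normalization. Depth limits Gna14, whose control values rest on few fragments.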
